A study of Mus musculus with 6 samples.

Results

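Cells answer fibroblast growth factors (FGFs) through receptor tyrosine kinases that activate RAS and then the kinase chain of RAF, MEK and ERK. ERK in turn switches on target genes, some of which damp the pathway. The 10 genes described here, called feedback regulators, are such target genes. The phosphatase genes Dusp4 and Dusp6 and the Sprouty genes Spry1, Spry2 and Spry4 damp the pathway. So do the Spred genes Spred1 and Spred2, and Il17rd, which encodes the membrane protein Sef. The ETS transcription factor genes Etv4 and Etv5 instead carry FGF signals to target genes. In the lens, FGF signalling drives epithelial cells to become fibre cells, and its feedback genes are commonly used as readouts of pathway activity. The 10 genes were chosen by name, and all 10 were found among the 27179 Entrez gene identifiers of the expression table. Total RNA from lenses of B6/FVB mice at P1 (postnatal day 1) was sequenced in 3 libraries labelled Gclc KO (KO 1 to 3) and 3 labelled Gclc CON (CON 1 to 3). Gclc encodes the catalytic subunit of the first enzyme of glutathione synthesis, and the comparison sets lenses labelled as its knockout beside their controls. The labels do not state a Cre driver, the deleted part of Gclc, the alleles the controls carry, the number of animals in a library, the sex of the mice or whether each library is a different animal. All p-values here therefore reflect only how far the 6 libraries spread, which may be technical. Levels are given as normalised reads, which are the reads of a gene divided by the library's size factor.

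The libraries held 20361430 (CON 2) to 61219009 (KO 3) reads in genes, and the size factors ran from 0.318 (CON 2) to 1.89 (KO 3). The targeted gene Gclc had 178, 283 and 173 normalised reads in the 3 CON libraries, against 17.9, 72.1 and 58.1 in the 3 KO libraries. All KO values lay below all CON values (log2 difference -1.01, SE 0.28, limma adjusted p = 0.0387), but the call was lost under 11 of 17 alternatives, among them the fits without CON 2 (adjusted p = 0.102), KO 1 (0.130), KO 2 (0.0940) or KO 3 (0.105). The defining transcripts of lens were abundant: crystallins took 59.5% to 68.4% of the reads in CON and 40.5% to 47.5% in KO, and the fibre membrane gene Mip had 49253 normalised reads or more in every library. Of 11468 tested genes, 6.91% were called higher (793 genes) and 4.39% lower (504 genes) in KO. Of the called genes 61.1% were higher, against 47.3% with equal library medians, 47.1% with voom and the size factors and 97.5% with total-read scaling (voom with all reads in genes as the library size). KO 2 and KO 3 share a style of library name that the other 4 libraries do not have, so a fit with that style as a covariate was among the alternatives, and within the other style KO 1 is the only KO library. The name of CON 2 ends in a tag that no other library has, and the labels do not explain it. CON 2 thus differs in this tag as well as in depth.

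The stretch upstream of a transcription start holds part of the sequence that ETS and other factors read. For the members, RefSeq promoter windows (GRCm38.p6) were matched for 7 of 10, in 8 windows; Dusp4, Spry4 and Etv4 were not matched. The 250 bases before the start are printed for 3 members: Dusp6, the member with the largest log2 difference in the fit, Il17rd, which rose from a low level, and Spry2, the most abundant Sprouty transcript in CON, which was not called. Capitals mark GGAA, the core of ETS binding sites, or its reverse complement TTCC. The Dusp6 window is chr10:99262981-99263230 (plus strand), the Il17rd window chr14:27038751-27039000 (plus strand) and the Spry2 window chr14:105896820-105897069 (minus strand). All are written 5′ to 3′ in the direction of transcription.
Dusp6: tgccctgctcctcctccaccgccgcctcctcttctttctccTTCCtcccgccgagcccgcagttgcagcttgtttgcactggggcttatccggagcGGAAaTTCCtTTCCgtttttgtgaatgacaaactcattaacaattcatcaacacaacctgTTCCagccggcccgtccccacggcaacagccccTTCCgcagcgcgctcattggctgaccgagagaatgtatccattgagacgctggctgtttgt
Il17rd: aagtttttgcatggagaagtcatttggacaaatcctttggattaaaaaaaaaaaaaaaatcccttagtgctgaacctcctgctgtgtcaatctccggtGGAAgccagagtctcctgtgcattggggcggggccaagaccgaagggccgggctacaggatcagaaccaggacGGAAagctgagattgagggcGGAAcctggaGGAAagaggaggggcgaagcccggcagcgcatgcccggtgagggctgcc
Spry2: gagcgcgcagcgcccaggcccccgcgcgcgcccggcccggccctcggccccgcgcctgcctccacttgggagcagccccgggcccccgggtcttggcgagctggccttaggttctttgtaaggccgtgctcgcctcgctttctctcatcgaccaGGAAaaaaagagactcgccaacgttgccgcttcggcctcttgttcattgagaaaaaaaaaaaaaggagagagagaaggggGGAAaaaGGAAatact

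The core occurred 6 times before Dusp6, 4 times before Il17rd and 3 times before Spry2, counted on both strands. Of all 32851 RefSeq windows of 250 bases, 93.4% held at least 1 GGAA, with a median of 3. The longer motif AGGAAG, which contains the core, occurred once before Dusp6 and 2 times before Spred2, and it occurred in 29.5% of all windows. CCGGAA (12.0% of all windows), TGACGTCA (1.55%) and TGANTCA (6.75%) were not found in the 8 windows of the members, searched on both strands. These are letter matches in short windows and not measured binding sites.

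Of the 10 feedback regulators, 5 were higher in KO lenses, none was lower, 4 were tested and not called, and Spred2 had too few reads to be tested. Those that rose were Dusp6, Dusp4, Spry4, Etv4 and Il17rd. This count of 5 of 9 tested members stands beside the 6.91% of all tested genes that were called higher. The members were chosen with earlier results of these data known, so the share is a description. Genes were tested when their mean over all 6 libraries was at least 1 unit above the lowest value (the filter). Dusp4, Etv4, Il17rd and Spred1 had a CON mean below that bar, so they were tested only through their KO values. Without the filter, 4 of 10 members were called higher, against 4.66% of all genes then tested. With a filter of 3 units, 1 of 3 tested members was called, against 6.79%. In 6 of the 9 tested members every KO library lay above every CON library, a pattern shown by 16.9% of all tested genes. The same held for the untested Spred2, and in Spry1, Spry2 and Etv5 the groups overlapped. The number called higher was 7 without CON 1, and it was 3 without CON 2, KO 2 or KO 3. Dusp6 and Dusp4 were called under every alternative in which they were tested, and Spry4 lost its call in 3 of 17.

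**Figure D1:**
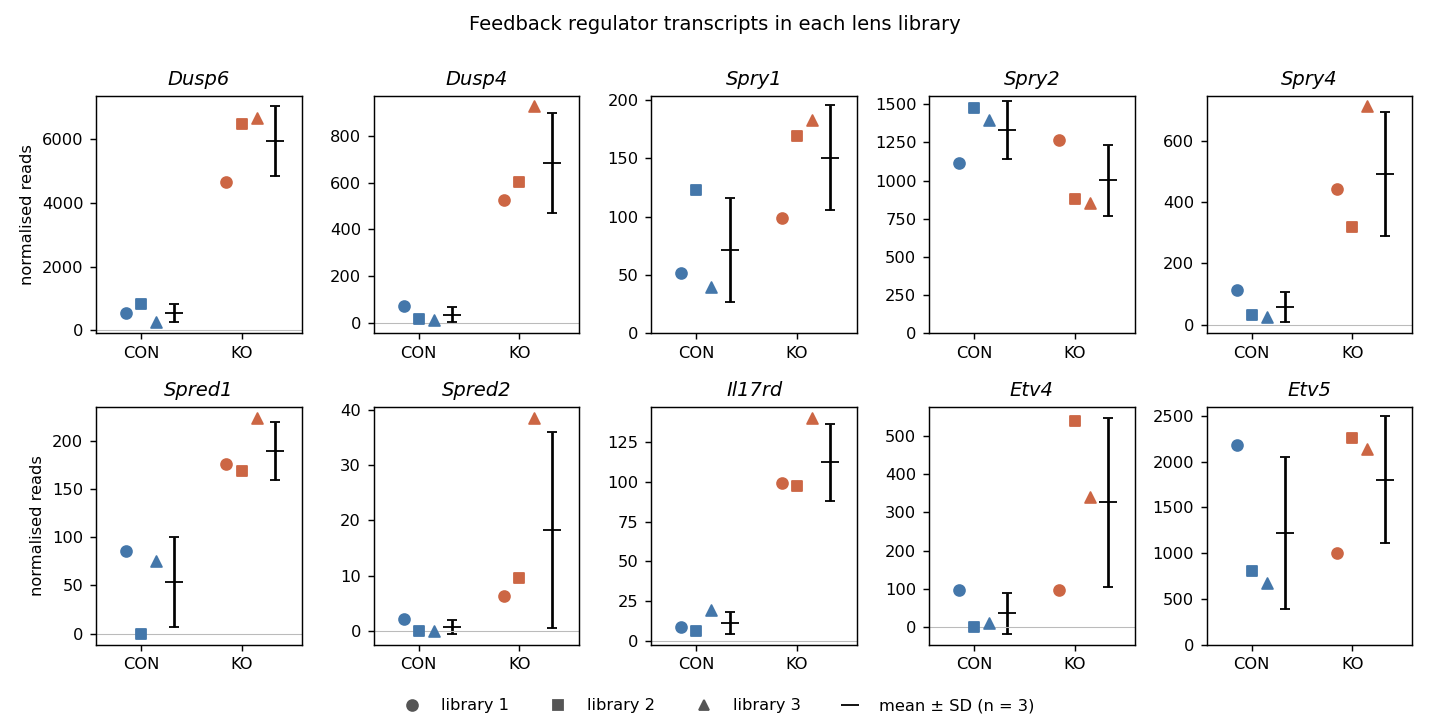
Normalised reads (linear vertical axes, 1 panel for each gene with its own scale) of the 10 feedback regulators in the 3 CON and 3 KO libraries, with the mean and SD of each group in black. Dusp6, Dusp4, Spry4, Spred1, Spred2, Il17rd and Etv4 show every KO point above every CON point, whereas Spry1, Spry2 and Etv5 overlap.

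**Figure D2:**
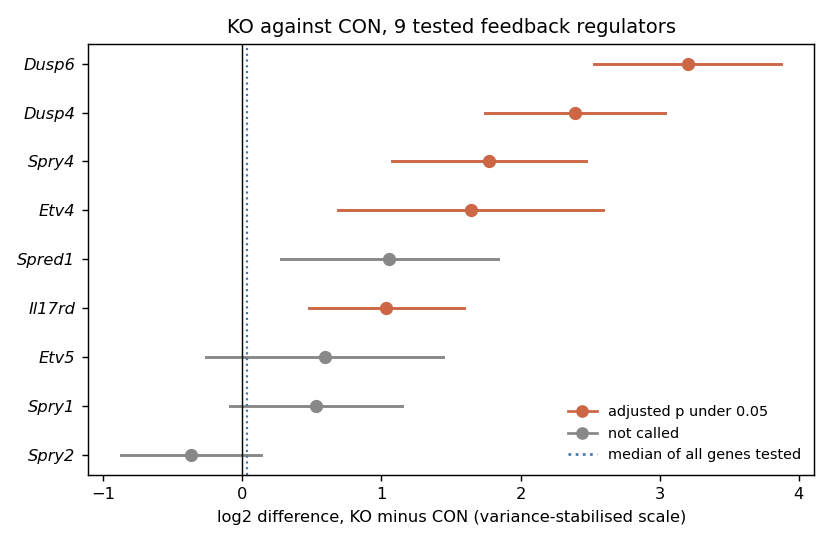
Log2 difference, KO minus CON, on the variance-stabilised scale for the 9 tested members, with 95% confidence intervals from limma. Dusp6 lies farthest to the right at 3.20, and Spry2 is the only tested member left of 0, at -0.37.

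Dusp6 and Dusp4 encode dual-specificity phosphatases that remove the activating phosphates from MAP kinases. Dusp6 acts on ERK in the cytoplasm, and Dusp4 acts in the nucleus. Dusp6 stood at 537, 818 and 243 normalised reads in CON 1 to 3 and at 4671, 6482 and 6654 in KO 1 to 3. The groups lay far apart, and the spread within each was small beside the gap. Mean Dusp6 was 533 ± 287 in the controls and 5936 ± 1099 in the knockouts (SD, n = 3), a ratio of 11.1 (log2 difference 3.20, SE 0.31, limma adjusted p = 0.000181). Dusp4 stood at 71.8, 18.9 and 13.3 in CON and at 525, 601 and 925 in KO. Its CON values rest on 68, 6 and 9 reads, against 911 to 1751 reads in KO. The ratio of the Dusp4 means was 19.7 (34.6 ± 32.3 and 684 ± 213, SD, n = 3; log2 difference 2.39, SE 0.30, limma adjusted p = 0.000656).

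The variance-stabilised scale compresses the differences of weakly expressed genes. On it, the difference of Dusp4 was the smaller of the pair, whereas its ratio of normalised reads was the larger. The gap between them (Dusp4 minus Dusp6) was -2.04 ± 0.66 (SD, n = 3) in CON and -2.85 ± 0.24 (SD, n = 3) in KO, and the groups overlapped (change -0.81, exact two-sided permutation test, p = 0.20, where 3 against 3 libraries allow no p under 0.10). On the log2 scale of normalised reads plus 1 the change had the opposite sign (0.97, exact permutation p = 0.30). Which of the 2 phosphatase genes differed more thus depended on the scale. Per kilobase of transcript, Dusp6 was the more abundant in all 6 libraries, with 190.6 normalised reads per kb against 12.6 for Dusp4 in the controls, and 2123 against 249 in KO. Dusp4 made up 6.52% ± 4.97 (SD, n = 3) of the summed level of the pair in CON and 10.4% ± 1.90 (SD, n = 3) in KO.

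Sprouty proteins are induced by receptor signalling and restrain the step from receptor to RAS and RAF. Of the 3 Sprouty genes, Spry4 was called higher, and Spry1 and Spry2 were not called. Spry4 stood at 114, 31.5 and 25.1 normalised reads in CON 1 to 3 and at 445, 319 and 713 in KO 1 to 3. The lowest KO library was above the highest CON library, and the ratio of means was 8.66 (log2 difference 1.77, SE 0.32, limma adjusted p = 0.00534). The call of Spry4 was lost in voom fits scaled by the size factors (adjusted p = 0.0769) or by non-crystallin reads (0.0720) and with a covariate for the style of the library name (0.108).

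Spry2 stood at 1118, 1479 and 1395 in CON and at 1266, 881 and 856 in KO. KO 1 lay inside the CON range and the other KO libraries below it (log2 difference -0.37, 95% interval -0.87 to 0.14, limma adjusted p = 0.342). With total-read scaling, the difference of Spry2 was 0.43, where the median of all tested genes was 0.86. Spry1 stood at 51.7, 123 and 39.8 in CON and at 99.1, 169 and 183 in KO. CON 2 lay above KO 1, and the difference did not pass (0.53, 95% interval -0.09 to 1.15, limma adjusted p = 0.264).

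The gap between Spry2 and Spry4 narrowed from 3.0 ± 0.62 (SD, n = 3) log2 units in CON to 0.86 ± 0.56 (SD, n = 3) in KO, without overlap between the groups. The exact two-sided permutation p of this change was 0.10, the smallest that 3 against 3 libraries allow, and 0.15 adjusted over the 6 paralog pairs compared. Spry1 minus Spry2 changed by 0.90 and Spry1 minus Spry4 by -1.24, each with the same p of 0.10 (adjusted 0.15, exact permutation test), and neither pair overlapped between groups. On the log2 scale of normalised reads plus 1, the changes of the pairs with Spry1 had an exact permutation p of 0.20.

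Per kilobase, the summed level of the 3 Sprouty transcripts in normalised reads was 675 ± 91.3 for CON and 637 ± 93.6 for KO (SD, n = 3), with ranges that overlapped. Spry2 made up 92.6%, 93.3% and 97.1% of that sum in CON 1 to 3, against 82.4%, 76.7% and 65.5% in KO. The Spry4 share went from 4.15%, 0.871% and 0.766% in CON to 12.7%, 12.2% and 23.9%. Spry2 was thus the most abundant Sprouty transcript in every library. The summed phosphatase pair was 203 ± 105 in CON and 2373 ± 451 in KO (SD, n = 3), without overlap.

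**Figure D3:**
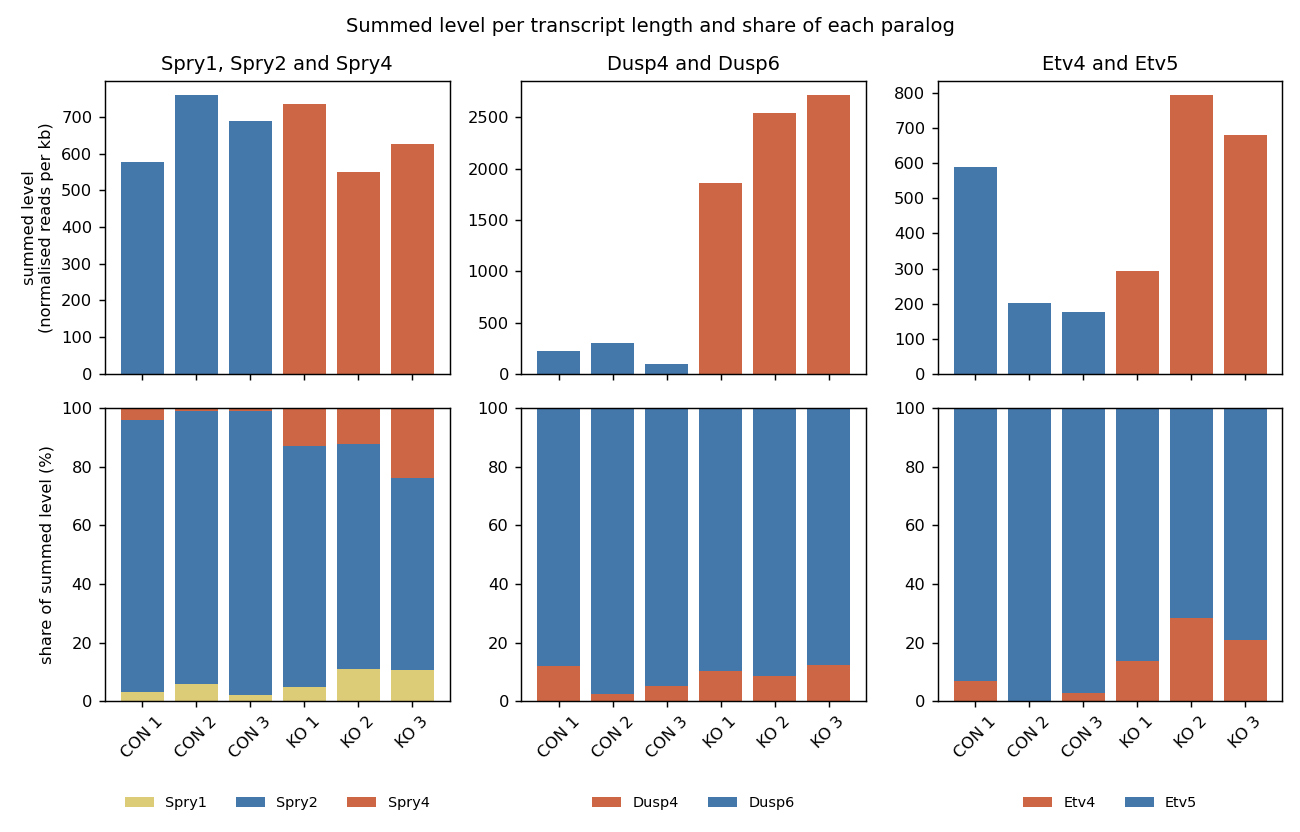
Upper row, summed level of the paralogs in each library in normalised reads per kilobase of the longest annotated transcript; lower row, share of each paralog in that sum (%). The Sprouty sum lies between 550 and 760 in all 6 libraries while the Spry4 share is larger in KO, whereas the sum of Dusp4 and Dusp6 lies at 1862 or more in KO and at 299.5 or less in CON.

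Spred proteins, relatives of Sprouty, bring the RAS inhibitor neurofibromin to the membrane. Spred1 stood at 85.5, 0 and 75.2 normalised reads in CON 1 to 3 and at 175.7, 168 and 224 in KO 1 to 3. No read was seen in CON 2, the shallowest library, where 3 reads would equal 9.44 normalised reads. The groups did not overlap, but the difference did not pass (1.06, SE 0.36, limma adjusted p = 0.0803), with adjusted p from 0.0416 (without CON 1) to 0.224 (without KO 3) when 1 library was left out. Without CON 2 the difference was 0.62 (adjusted p = 0.186). Spred2 had 2, 0 and 0 reads in CON and 11, 16 and 73 in KO, so that most of its reads came from KO 3. Without the filter on low values its adjusted p was 0.120.

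Sef, the product of Il17rd, is a membrane protein that holds active MEK and ERK in the cytoplasm. Il17rd had few reads, with 8.44, 6.29 and 19.2 normalised reads in CON 1 to 3 (8, 2 and 13 reads) and 99.6, 97.4 and 141 in KO 1 to 3. The KO values were close together and all above the CON values, with a ratio of means of 9.96 (log2 difference 1.04, SE 0.25, limma adjusted p = 0.0231). Its call was lost under 11 of 17 alternatives, among them the fits without CON 2 (adjusted p = 0.0520), KO 1 (0.0601), KO 2 (0.104) or KO 3 (0.138), quantile normalisation (0.0893) and the replicate block (0.0527).

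Etv4 and Etv5 encode ETS factors of the PEA3 group, which carry FGF signals to target genes and are themselves FGF targets. Etv4 stood at 97.1, 0 and 11.8 normalised reads in CON 1 to 3 and at 97.3, 539 and 341 in KO 1 to 3. CON 1 and KO 1 were almost equal, so that the groups only just failed to overlap. The means were 36.3 ± 53 in CON and 326 ± 221 in KO (SD, n = 3; log2 difference 1.64, SE 0.44, limma adjusted p = 0.0328). The call was lost under 10 of 17 alternatives, among them the fits without CON 2 (adjusted p = 0.122), CON 3 (0.0803), KO 2 (0.144) or KO 3 (0.0899). With the covariate for the name style that KO 2 and KO 3 share, the Etv4 difference was 0.78 (adjusted p = 0.542). Etv5 stood at 2179, 799 and 677 in CON and at 1003, 2265 and 2137 in KO. CON 1 lay among the upper KO values and KO 1 among the lower CON values (log2 difference 0.59, SE 0.39, limma adjusted p = 0.369). The Etv5 difference was 1.05 without CON 1 (adjusted p = 0.0480), 0.31 without CON 3 (0.689) and -0.085 with the covariate for library name style (0.965).

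Both ETS genes thus shared an order of libraries, with CON 1 the highest CON library and KO 1 the lowest KO library. CON 1 was the highest CON library for 6 of the 10 members and for 37.0% of all tested genes. KO 1 was the lowest KO library for 6 of 10 and for 38.6% of all tested genes. Dusp6 did not follow the CON order, since CON 2 was its highest CON library. Per kilobase, Etv4 took 6.89%, 0% and 2.81% of the sum with Etv5 in CON 1 to 3, against 13.9%, 28.3% and 20.9% in KO. The gap Etv4 minus Etv5 changed by 1.05 log2 units without overlap between the groups (exact two-sided permutation p = 0.10, adjusted 0.15 over 6 pairs). Spred1 minus Spred2 changed by 0.54 with overlap (exact permutation p = 0.20, adjusted 0.20).

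In CON the order of levels per kilobase was Spry2 (638), Etv5 (307), Dusp6 (190.6), Spry1 (25.8), Etv4 (15.2), Dusp4 (12.6), Spry4 (12.0), Spred1 (8.91), Il17rd (1.37) and Spred2 (0.158), all as mean normalised reads per kb. Spry1, Etv4, Dusp4, Spry4 and Spred1 did not differ beyond their spread in this order. In KO the order began with Dusp6 (2123), Spry2 (479.7), Etv5 (453), Dusp4 (249), Etv4 (136) and Spry4 (103). Etv5 and Dusp6 in CON did not differ beyond their spread. In KO, the SDs (n = 3) were 110 for Spry2, 175 for Etv5, 77.7 for Dusp4, 92.3 for Etv4 and 42.4 for Spry4. Neighbours in this order below Dusp6 thus did not differ beyond their spread.

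**Figure D4:**
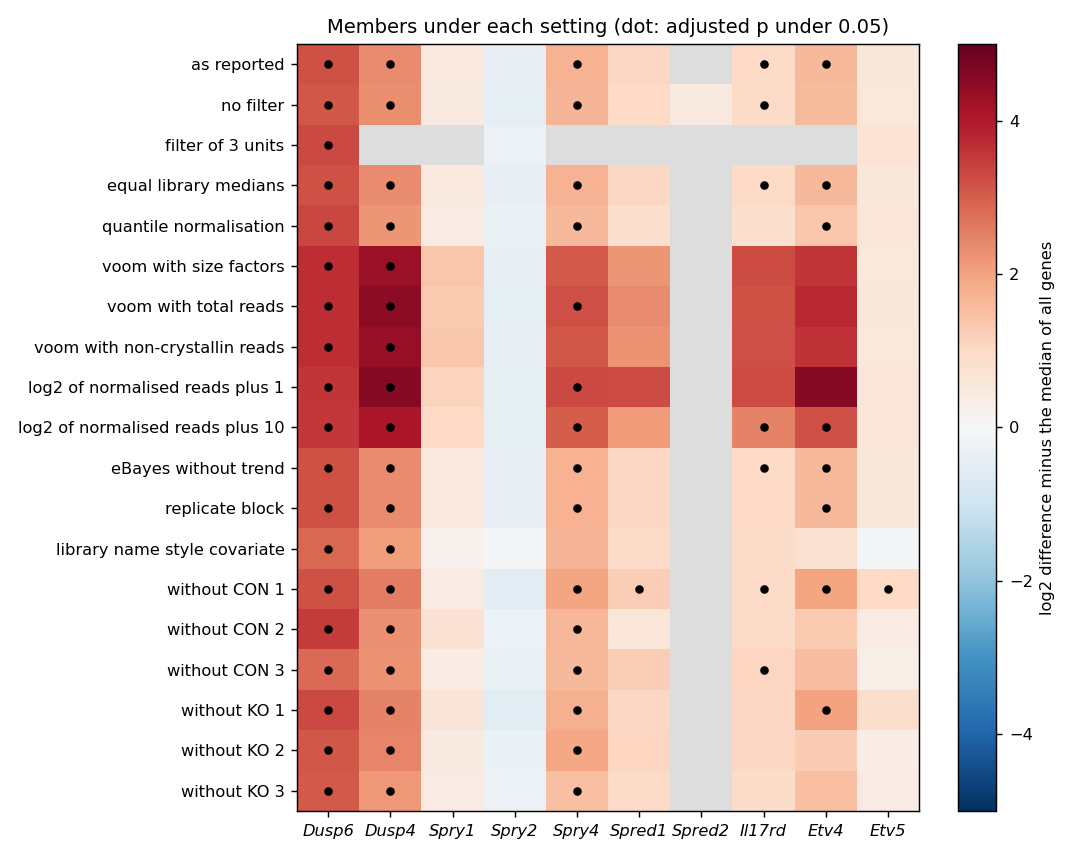
Log2 difference of each member minus the median of all tested genes (colour, KO minus CON) under the reported fit and 18 alternatives (rows), with a dot where the adjusted p was under 0.05 and grey where the gene was not tested. The columns of Dusp6 and Dusp4 carry a dot in every row in which they were tested, whereas those of Etv4 and Il17rd carry a dot in fewer than 10 of the rows.

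The rest of the pathway, from ligand to kinases, was read from 7 lists with 100 genes, of which 67 were tested, 11 rose and 5 fell. The shares over all tested genes that these counts, and those of each list, are read against are 6.91% higher and 4.39% lower, so that the falls are near the background. Their median log2 difference was 0.25, against 0.03 for all tested genes. With CON 2, KO 2 or KO 3 left out, 7 rose, and the falls numbered 0 when KO 2 was left out and 2 when CON 2, KO 1 or KO 3 was. Of the genes that rose, Fgf1, Fgf14, Dusp10, Dusp14, Etv3, Epha4, Egr1 and Myc had a CON mean below the bar of the filter. They were tested only through their KO values. Without the filter, 10 of 92 tested genes rose and 3 fell, against 4.66% and 1.87% of all genes then tested. With a filter of 3 units, 1 of 27 rose and 5 fell, against 6.79% and 9.22%. Of the 22 Fgf genes in the ligand list, 5 were tested (Fgf1, Fgf12, Fgf13, Fgf14 and Fgf15) and 2 rose. The list was drawn up by gene name, and not all of its genes encode secreted ligands. Fgf1, a ligand of all FGF receptors, stood at 53.8, 0 and 85.5 normalised reads in CON 1 to 3 and at 141, 246 and 371 in KO (limma adjusted p = 0.0411, lost without CON 2, KO 2 or KO 3, up to 0.159). Fgf14, which encodes an intracellular partner of sodium channels and not a secreted ligand, had reads only in CON 1 among the CON libraries (120.3, 0 and 0) and 255, 201 and 179 in KO (limma adjusted p = 0.0328, lost without CON 2, CON 3, KO 1, KO 2 or KO 3, up to 0.117). In all, Fgf1 lost its call under 11 of 17 alternatives (limma adjusted p up to 0.472) and Fgf14 under 12 of 17 (up to 0.208).

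Of 7 tested genes of receptors and co-receptors, 2 fell, 0 rose and 5 were not called, whereas with total-read scaling 4 rose and 0 fell. Fgfr3 stood at 1807, 954 and 1339 in CON and at 594, 411 and 378 in KO (log2 difference -1.27, SE 0.27, limma adjusted p = 0.0108). Fgfrl1, which encodes a receptor without a kinase domain, stood at 2878, 1825 and 1642 in CON and at 675, 911 and 1003 in KO (log2 difference -1.12, SE 0.25, limma adjusted p = 0.0156). Fgfr1 and Fgfr2 were not called, with differences of 0.24 and -0.32. Fgfr3 lost its call without KO 2 (adjusted p = 0.0540), and Fgfrl1 without KO 1 or KO 2 (up to 0.0640).

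Of 19 tested adaptors and RAS regulators, Grb2, which encodes the adaptor that links receptors to RAS activation, fell and the other 18 were not called (4 rose and 0 fell with total-read scaling). Grb2 stood at 1099, 1561 and 1136 in CON and at 609, 429 and 536 in KO (log2 difference -1.05, SE 0.23, limma adjusted p = 0.0149). The call of Grb2 was lost under 5 of 18 alternatives. Among them were the fits without CON 2, KO 2 or KO 3 (up to 0.0983), total-read scaling and the covariate for library name style (up to 0.262). Of 14 tested genes of RAF, MEK, ERK and RSK kinases and their partners, 2 fell, 0 rose and 12 were not called (6 rose and 0 fell with total-read scaling). Map2k2, a MEK gene, fell by 1.21 (limma adjusted p = 0.0343), and Pea15a, whose product binds ERK in the cytoplasm, fell by 0.66 (adjusted p = 0.0444). Each of these 2 calls was lost in 5 of the 6 fits with 1 library left out (up to 0.114 for Map2k2, kept without CON 3, and up to 0.204 for Pea15a, kept without CON 1). In all, Map2k2 lost its call under 10 of 18 alternatives (limma adjusted p up to 0.389). Pea15a lost its call under 12 of 18 alternatives and changed sign under 1 of them, total-read scaling (adjusted p = 0.438). With total-read scaling, none of the 5 falls in the pathway lists was called, and the median of all tested genes was 0.86.

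Among other MAP kinase phosphatases, 2 of 6 tested rose and none fell. Dusp10, which encodes a phosphatase of JNK and p38, had 0, 6.29 and 0 normalised reads in CON 1 to 3 (2 reads in all) and 569.6, 223 and 172 in KO (limma adjusted p = 0.00206). Dusp14 stood at 39.1, 0 and 38.3 in CON and at 274, 227 and 236 in KO (limma adjusted p = 0.00821). Both kept their calls when any 1 library was left out, and both lost them in voom fits scaled by the size factors or by non-crystallin reads. Dusp14 also lost its call with log2 of normalised reads plus 1 and with the covariate for library name style. Its limma adjusted p went up to 0.141. The untested Dusp9, an ERK phosphatase gene, had no read in CON, where 3 reads over the group equal 1.54 normalised reads, and 36.9, 80.0 and 47.6 normalised reads in KO 1 to 3. It was chosen for mention after its values were seen.

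Of 7 tested further ETS genes, Elk3 and Etv3 rose. Elk3, a target of RAS and ERK that acts as a repressor, stood at 120.3, 169.9 and 145 in CON and at 604, 474 and 472 in KO (limma adjusted p = 0.00963). The call of Elk3 was lost with the covariate for library name style (limma adjusted p = 0.0850). Etv3 rose by 0.90 (limma adjusted p = 0.0480) and lost this call under 14 of 17 alternatives (up to 0.342). Among them were the fits without CON 2, CON 3, KO 1, KO 2 or KO 3 (up to 0.206). Spry3 had no reads, and Spred3, too low to be tested, stood at 14.8, 0 and 2.95 in CON and at 41.5, 34.9 and 54.4 in KO.

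Of 9 tested genes known as other outputs of ERK, 5 rose (6.91% of all tested genes) and none fell (4.39%). The early response gene Egr1 stood at 72.8, 18.9 and 5.90 in CON and at 833, 683 and 891 in KO (log2 difference 2.66, SE 0.29, limma adjusted p = 0.000293). Ier3 stood at 55.9, 88.1 and 38.3 in CON and at 529.8, 436 and 489 in KO (log2 difference 1.71, SE 0.25, limma adjusted p = 0.00187). The transcription factor gene Myc rose by 2.27, the growth factor gene Hbegf by 1.21 and the ephrin receptor gene Epha4 by 1.00 (limma adjusted p = 0.00313, 0.00958 and 0.0430). These 3 were named because only 5 genes were called. Myc lost its call under 3 of 17 alternatives (adjusted p up to 0.0656), and Hbegf under 1 of 17, the covariate for library name style (0.0645). Epha4 lost its call under 14 of 17 alternatives (up to 0.219), among them the fits without CON 2, CON 3, KO 1, KO 2 or KO 3 (up to 0.15). Ccnd1, Phlda1, Epha2 and Errfi1 were not called, with differences from -0.45 to 0.85.

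**Figure D5:**
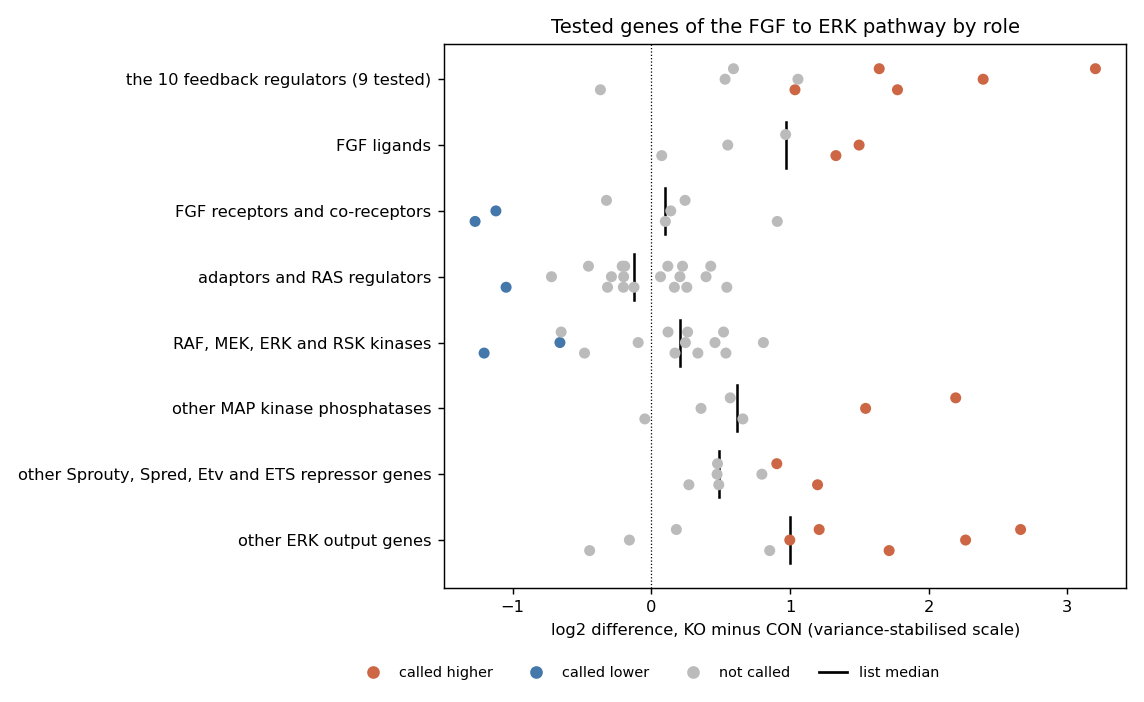
Log2 difference, KO minus CON, on the variance-stabilised scale for each tested gene, by its role in the pathway, with called genes in colour and the list median as a black bar. Called rises lie among the feedback regulators, the ligand list (Fgf1 and Fgf14), other phosphatases, ETS genes and ERK outputs. Called falls lie among receptors, adaptors and kinases.

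The tissue also holds other cells, and in bulk RNA fewer cells of a type and less RNA per cell cannot be told apart. Of 15 tested macrophage markers, 12 rose and none fell (6.91% and 4.39% of all tested genes), none of the 16 listed was without reads in either group, and their summed level was 2348 to 4385 normalised reads in CON and 8294 to 27581 in KO (Cd68, limma adjusted p = 0.00103; C1qa, 0.00254). Within KO, C1qa stood at 3676, 1883 and 1402 normalised reads and Cd68 at 1931, 1165 and 817 in KO 1 to 3. Without CON 2 or without KO 1, 6 macrophage markers were called higher. In voom fits 5 were called higher with the size factors (3.67% of all tested genes), 4 with non-crystallin reads (4.98%) and 8 with total reads (28.9%). Of 8 tested retina markers 2 rose, among them Six6 (limma adjusted p = 0.000372), and the summed level of the 12 listed went from between 1687 and 2840 in CON to between 7582 and 9820 in KO. Rcvrn and Pou4f2 were without reads in CON.

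Of 5 tested pigment cell markers, Tyrp1 rose (limma adjusted p = 0.0398, lost without CON 2, KO 1 or KO 2, up to 0.172). In all, Tyrp1 lost its call under 10 of 18 alternatives (up to 0.188). The sum of the 7 listed was 8110 to 10186 in CON and 11243 to 18027 in KO. Of 9 tested endothelium markers none was called (Egfl7, limma adjusted p = 0.0514; Cdh5, 0.0691), with sums of 3435 to 4091 in CON and 1720 to 4732 in KO. Of 3 tested mesenchyme markers, Pdgfra fell (limma adjusted p = 0.00616; Prrx1 was not called, 0.0726), with sums of 788 to 1391 in CON and 538 to 583 in KO. Lens fibre markers fell in 10 of 11 cases (limma adjusted p = 0.000656 for Mip and 0.00101 for Lgsn). Their sums ran from 11937600 to 17959300 in CON and from 4357690 to 6863730 in KO. Without CON 2, 6 of them fell. With quantile normalisation 6 fell (5.28% of all tested genes) and 1 rose (6.64%). With the covariate for library name style 2 fell (0.34%). The counts of the reported fit in this paragraph stand beside the 6.91% higher and 4.39% lower of all tested genes. Of 6 tested lens epithelium markers, Pax6 and Aqp1 rose and Cdh1 and Slc38a3 fell, with sums of 16784 to 33560 in CON and 26233 to 36100.5 in KO. Without CON 2, KO 1, KO 2 or KO 3 the rises of Pax6 and Aqp1 were not called, and Slc38a3 lost its call in every fit with 1 library left out other than that without CON 3 (up to 0.104). In all, Pax6 lost its call under 6 of 18 alternatives, Aqp1 under 8 of 18 and Slc38a3 under 10 of 17. The part of these cell types in the differences of the feedback regulators was not tested.

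The tested genes whose centred log2 profile over the 6 libraries lay nearest to that of Dusp6 were Meox2, Prelp, S100a10, Plpp3 and Cd9. Their root mean square differences from Dusp6 were 0.21, 0.30, 0.32, 0.34 and 0.35 log2 units, with KO minus CON differences from 3.02 to 3.48. The nearest members were Dusp4 at 0.57 and Spry4 at 0.86, and the farthest was Spry2 at 1.85. This likeness describes 6 libraries in 2 groups and rests mostly on the gap between the groups.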

How the data were processed

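The tools named in the submitters' processing notes are Trimmomatic, HISAT2 2.1.0, featureCounts 1.6.4 and DESeq2 (listed as version 2.11.0.6), with mm9 as the build. The authors deposited log2 values after a variance-stabilising transformation, 1 column per library, with a lowest value of 6.504 for a gene without reads. The transformation was inverted, and 100% of values came within 0.1 of a whole read; the implied size factors are the median-of-ratios ones. The labels name no molecular identifiers, so floors cover counting error only.

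Identifiers were matched to symbols with RefSeq genes of GRCm38.p6 (25275 of 27179), used for names only, and per-kilobase levels used the longest GENCODE transcript. The 2 groups were tested in R 4.3.3 by limma 3.58.1 (eBayes with trend, two-sided, Benjamini-Hochberg) on the deposited values of 11468 genes whose mean was at least 1 unit above the lowest value, and calls were made at an adjusted p under 0.05. The fit was tested on simulated data. The filter took the mean over all 6 libraries, so a gene low in 1 group could be tested through the other group alone. Paralog pairs used exact permutation tests (scipy 1.17.1). Alternatives changed the filter, scaling, pseudocount, variance prior, covariates and libraries.

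The members and lists were chosen with earlier results of these data known. Named genes are Gclc, the members, up to 2 called genes per pathway list and direction with the smallest p, up to 2 per cell type list, and the 5 genes nearest to Dusp6; further genes fall outside this rule and were chosen after their values were seen. For 1 called marker gene no values are reported here.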

Additional observations from a re-analysis of the deposited data

How the results depend on the processing

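Dusp6 and Dusp4 kept direction and call under every alternative that tested them (18 and 17), with differences from 2.85 to 4.55 and from 2.12 to 5.32. The members called higher numbered 5 as reported, 1 with a filter of 3 units (3 members tested), 2 with voom and either the size factors or non-crystallin reads, 3 with voom and total reads, 3 with log2 of normalised reads plus 1, 2 with the covariate for library name style, and from 3 to 7 with 1 library left out. Pathway genes higher and lower numbered 11 and 5 as reported; higher were 1 with the filter of 3 units, 4 with voom and size factors, 28 with total reads, 5 with non-crystallin reads, 5 with log2 plus 1, 4 with the name covariate and 7 to 14 with 1 library left out, and lower were 3 without a filter, 0 with total reads, 2 with non-crystallin reads, 0 with the name covariate and 0 to 4 with 1 library left out. Of all tested genes, 6.91% were higher and 4.39% lower as reported; higher were 6.79% with the filter of 3 units, 3.67% with voom and size factors, 28.9% with total reads, 1.78% with the name covariate and 3.11% to 9.46% with 1 library left out, and lower were 9.22% with the filter of 3 units (462 genes), 1.87% without a filter (360 genes), 0.741% with total reads, 2.55% with non-crystallin reads, 0.34% with the name covariate and 1.53% to 7.48% with 1 library left out. The median of all genes was 0.03 as reported, -0.09 with equal medians, 0.23 with non-crystallin reads and 0.86 with total reads. Spry2 (0.43) and Pea15a (adjusted p = 0.438) reversed with total reads, Etv5 with the name covariate (-0.085, adjusted p = 0.965), and Dusp4 minus Dusp6 with log2 of normalised reads plus 1 (0.97) or plus 10 (0.55); apart from the change of scale, the cause was not tested. The other 5 paralog pairs kept their sign with these pseudocounts and with 1 library left out, the alternatives run for them, but Spred1 minus Spred2 went from 0.54 to 0.014 (exact permutation p = 1.0) with plus 1 and to 0.14 without CON 2. Equal replicate numbers did not pair the libraries (residual correlations -0.364, -0.128 and -0.140); with the replicate block 4 members, 9 pathway genes and 605 genes in all were called higher and 309 (2.69%) lower. The shallow CON 2 limits low members: 3 reads there equal 9.44 normalised reads.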
